A study of Mus musculus with 16 samples.

Results

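The astrocyte genes described here are 31 genes whose transcripts mark astrocytes of the mouse cortex, among 19938 genes measured on the loss-of-function arrays and 22180 on the gain-of-function arrays. They are known markers of the cell type. Each is represented by its probe set, or by the brightest where there were several, and all 31 were measured in both array tables. The RNA came from the cortex of *Map2k1/2;Neurod6-Cre* loss-of-function mutants and their controls at P9 (2 mutants, 2 controls) and P14 (3 mutants, 3 controls), and of *ca-Map2k1;Neurod6-Cre* gain-of-function mutants and their controls at P21 (3 mutants, 3 controls), with 1 array for each mouse. The loss-of-function mutants were homozygous for floxed *Map2k1* and for a germline null allele of *Map2k2*, and the gain-of-function mutants carried a Cre-dependent, constitutively active *Map2k1* transgene. In both models Cre was expressed from the *Neurod6* locus, which is active in postmitotic excitatory neurons of the cortex. Recombination in astrocytes was not measured on these arrays. The *Map2k2* deletion of the loss-of-function mutants is in every cell, astrocytes included. Controls were littermates with or without Cre, and the sources used here do not give their *Map2k2* genotype. The mice were of mixed genetic background, and the labels do not say which mice shared a litter.

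Astrocytes are born from the radial glia of the cortex around birth and mature over the first postnatal weeks. They take up glutamate and potassium, join each other through connexin gap junctions, and cover blood vessels with endfeet that carry the water channel aquaporin-4. In reaction to injury or to sick neurons they make more of the filament protein GFAP and of other genes that are described as reactive markers. In RNA of whole tissue, fewer astrocytes and less of a transcript in each astrocyte cannot be told apart, and several of the 31 genes are also made by other cells, such as *Apoe*, *Cst3* and *Mfge8* by microglia, *Glul*, *Clu* and *Ndrg2* by some neurons or oligodendrocytes, and *Sox9*, *Hes5*, *Fabp7* and *Id3* by progenitors.

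Values are log2 signals, and a change is the mean of the mutants minus the mean of the controls on that scale, with its standard error (SE) from limma. Genes with an adjusted p under 0.05 over all genes are termed called. Median log2 signals of the arrays were 6.13 to 6.18 at P9, 7.91 to 8.08 at P14 and 6.23 to 6.31 at P21, so levels are compared within an age only. All 31 members gave a signal in the middle of the arrays' range or above it, which does not say which cells made the RNA. The member of the lowest rank in any group, *Id3* in P14 mutants, lay at the 47.2 percentile of all genes, and *Slc1a2*, *Aldoc*, *Glul* and *Sparcl1* lay above the 95 percentile at every age. The probe sets of *Map2k1* and *Map2k2* summarise probes along the whole transcript and do not check the deletions, with signals of *Map2k1* of 10.16 and 9.95 in P9 mutants against 10.04 and 10.04 in controls, and of 10.91, 10.79 and 10.89 in P14 mutants against 10.88, 10.78 and 10.74 in controls. The study itself reported less signal in P14 mutants from single probes of the floxed *Map2k1* exon, and less MAP2K1 protein. At P21, where the mutants carry a *Map2k1* transgene, the *Map2k1* probe set was at 10.33, 10.38 and 10.29 in mutants against 10.11, 10.08 and 10.12 in controls. Every P21 mutant was above every control, with a change of 0.23 ± 0.064 (SE, limma adjusted p = 0.310). *Neurod6*, the gene into which Cre was inserted, was at 6.16, 6.30 and 6.78 in P14 mutants against 8.91, 9.40 and 10.14 in P14 controls, and at 7.07 and 7.71 in P9 mutants against 9.10 and 9.28 in P9 controls. At P21 it was at 8.33 to 8.52 in mutants and 8.46 to 8.75 in controls. By *Xist* and the Y-linked *Eif2s3y*, P14 mutants 9 and 11 were female and every other mouse was male. The arrays of P14 mice 1 (a mutant) and 2 (a control) stood apart from those of mice 9 to 12, and their deviations from their group means correlated across the 19938 genes with r = 0.76, a description over genes of arrays that share each group's mean. The labels name no batch, so this set of arrays was drawn from the values themselves. What sets these arrays apart is not known.

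At P9, most astrocyte genes had a higher mean in mutants, and the largest differences were in the connexin *Gjb6*, the filament gene *Gfap* and a neurotensin receptor gene, *Ntsr2*. The mean was higher in mutants for 25 of the 31 genes, against 51.8% of all genes, and the median change was 0.18, against 0.0054 over all genes. None of the 31 was called by limma, where 0.0752% of all genes were called. At an unadjusted p under 0.05, 11 members were higher in mutants, against 5.32% of all genes, and 0 were lower, against 5.21% of all genes. At the thresholds of the study's methods, an unadjusted p under 0.05 with a change of more than 1.5-fold, *Gfap* and *Gjb6* passed, 2 of 31 members against 1.11% of all genes. The values of mutants and controls did not overlap in 20 members higher in mutants, against 22.0% of all genes, and in 2 lower in mutants, against 19.7% of all genes.

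*Gfap*, the intermediate filament that fills the processes of mature and reactive astrocytes, was at 8.96 and 9.15 in P9 mutants, against 8.52 and 8.38 in controls. Both mutants were above both controls, and the change was 0.61 ± 0.11 (SE), or 1.52-fold, with a 95% interval of 0.35 to 0.86 (unadjusted p = 0.00126, limma adjusted p = 0.160). *Gjb6*, which encodes connexin 30, was at 7.25 and 7.31 in P9 mutants, against 6.52 and 6.71 in controls. Its change of 0.66 ± 0.099 (SE), or 1.58-fold, was the highest of the members and had the lowest p of them (unadjusted p = 0.000564, limma adjusted p = 0.130). *Gja1*, which encodes connexin 43, the partner of connexin 30 in astrocyte gap junctions, was at 10.84 and 10.80 in mutants and 10.42 and 10.50 in controls. The groups did not overlap, with a change of 0.36 ± 0.084 (SE, limma adjusted p = 0.253). *Aldoc*, the aldolase of astrocyte glycolysis, was at 12.13 in both P9 mutants, against 11.78 and 11.89 in controls, a change of 0.30 ± 0.086 (SE, limma adjusted p = 0.333).

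Not every astrocyte gene lay on that side at P9. *Aqp4*, the endfoot water channel, was at 9.66 and 9.24 in P9 mutants, against 9.71 and 9.69 in controls. Both mutants were below both controls, but mutant 1 by a small margin, and the change was -0.25 ± 0.15 (SE, limma adjusted p = 0.621). *Fabp7*, the fatty acid binding protein of radial glia and young astrocytes, was the other member whose mutants were both lower, at 10.88 and 10.54 in mutants against 11.01 and 10.95 in controls. *Aldh1l1*, a folate enzyme used as a general marker of astrocytes, was at 8.69 and 8.56 in mutants and 8.81 and 8.68 in controls, and the groups overlapped. *Slc1a2*, the main glutamate transporter GLT-1, was at 11.76 and 11.79 in mutants and 11.58 and 11.64 in controls, a change of 0.17 ± 0.082 (SE, limma adjusted p = 0.546). *Sox9*, a transcription factor of gliogenesis that astrocytes keep, was at 7.95 and 8.13 in mutants and 7.91 and 7.82 in controls, a change of 0.17 ± 0.098 (SE, limma adjusted p = 0.601). In *Slc1a2* and *Sox9* both mutants were above both controls, the side on which most members lay.

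By role, the 5 genes of water transport, barrier and junction had a median change of 0.33 at P9, of which *Gjb6*, *Gja1* and the claudin *Cldn10* (0.33) passed an unadjusted p of 0.05 and *Mlc1*, an endfoot membrane protein, had 0.13. The 4 genes of receptors and signalling had a median of 0.24, led by the neurotensin receptor *Ntsr2* at 0.39 and by *Ndrg2* at 0.27, with the calcium-binding protein *S100b* at 0.21 and the growth factor receptor *Fgfr3* at 0.15. The 7 genes of amino acid handling had a median of 0.21, with *Slc1a3*, the glutamate transporter GLAST, at 0.21, and *Glul*, glutamine synthetase, at 0.22. The mitochondrial glutamate carrier *Slc25a18* had 0.22, the glycine cleavage enzyme *Gldc* 0.21, the cystathionine enzyme *Cbs* 0.15 and the transporter *Slc7a10* -0.046. The 7 secreted and surface proteins had a median of 0.18, with the tissue factor gene *F3* at 0.38, *Clu* at 0.24, *Apoe* at 0.21 and *Chrdl1*, an inhibitor of bone morphogenetic proteins, at -0.15. Of the other secreted proteins, cystatin C (*Cst3*) had 0.18, *Mfge8*, which tags cell debris for uptake, 0.073, and the synapse protein *Sparcl1* 0.042. *Chrdl1* had the widest spread of the members at P9, at 8.25 and 7.36 in the mutants. The 3 genes of metabolism had a median of 0.094, and the 4 genes shared with progenitors a median of 0.016, with *Hes5* at -0.019 and *Id3* at 0.051.

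**Figure D1:**
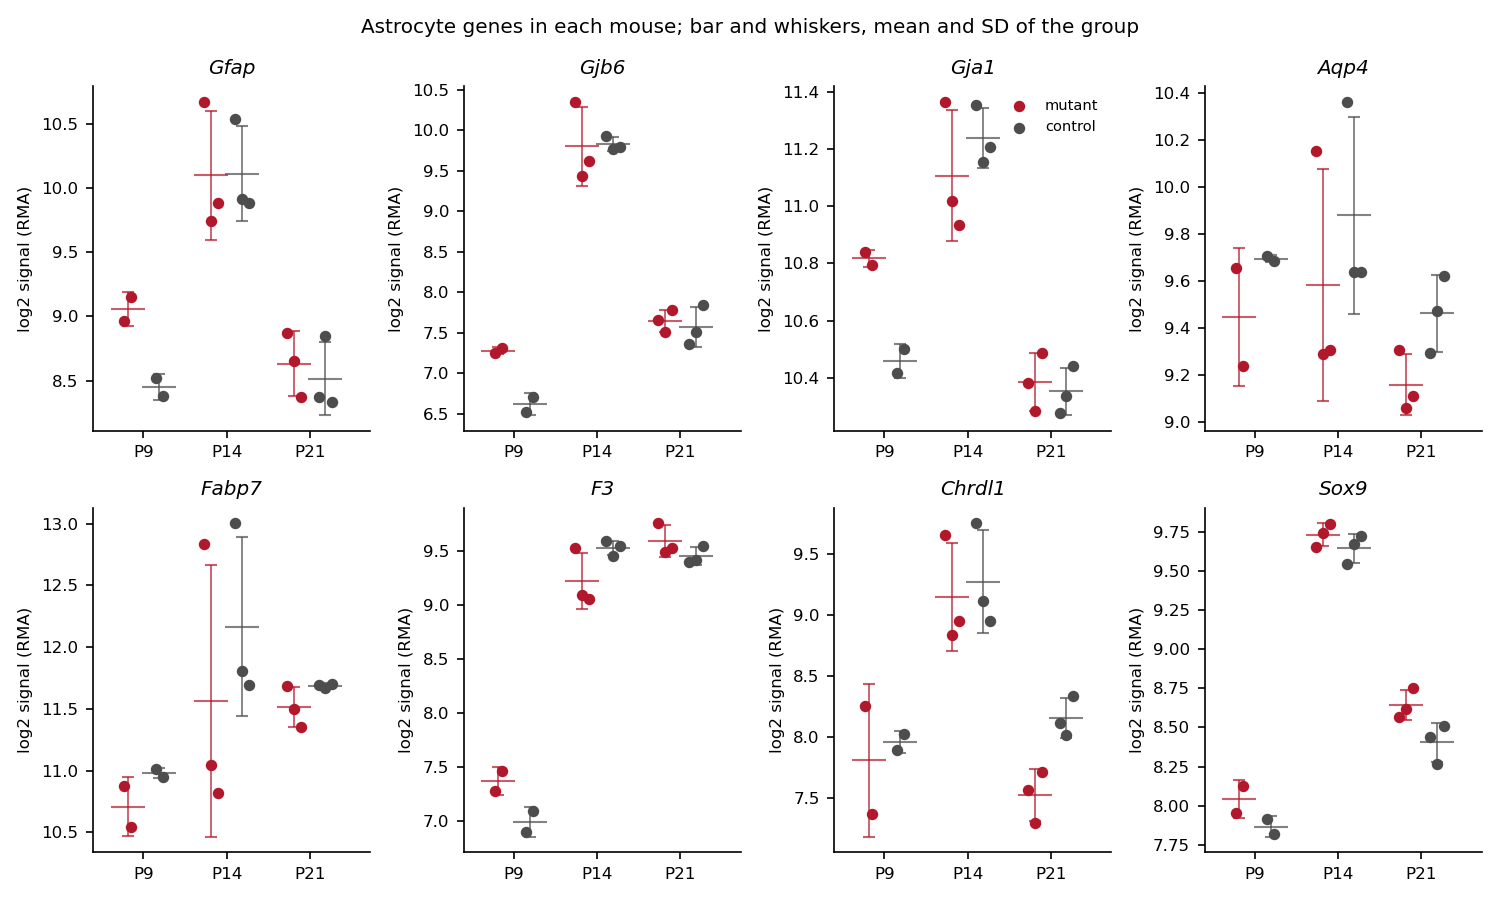
Log2 signal (vertical axis, RMA values) of 8 astrocyte genes in each mouse at P9, P14 and P21 (horizontal axis), with mutants in red left of controls in grey; the bar and whiskers are the mean and SD of each group. At P9 both mutants lie above both controls for Gfap, Gjb6, Gja1 and F3, at P14 the highest point of each group in Gfap, Aqp4, Fabp7 and Chrdl1 is mutant 1 or control 2, and at P21 all 3 mutants lie below all 3 controls for Chrdl1. Levels of different ages were normalized apart and are not comparable.

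The start sites of the members that led at P9 are shown because GFAP is the classic target of STAT3 in astrocytes, whose core site is TTCNNNGAA, and because immediate early AP-1 factors, which ERK induces, bind TGANTCA. *F3* is shown with them because it had the lowest p of the members, in the fit with no block on the array set, for the difference between the P9 and P14 changes. The windows run from 250 bases before to 50 bases after each RefSeq start on GRCm38.p6. *Gfap* lies at chr11:102897151-102897450 (minus strand), *Gjb6* at chr14:57133562-57133861 (minus strand), *Gja1* at chr10:56377050-56377349 (plus strand) and *F3* at chr3:121723287-121723586 (plus strand). Capitals mark a match to either motif, searched on both strands.
Gfap: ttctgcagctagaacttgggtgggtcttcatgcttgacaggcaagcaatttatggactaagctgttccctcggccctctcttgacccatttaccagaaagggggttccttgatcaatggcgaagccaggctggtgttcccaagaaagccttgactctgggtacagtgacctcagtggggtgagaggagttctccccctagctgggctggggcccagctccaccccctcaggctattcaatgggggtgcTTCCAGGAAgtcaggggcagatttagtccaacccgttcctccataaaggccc
Gjb6: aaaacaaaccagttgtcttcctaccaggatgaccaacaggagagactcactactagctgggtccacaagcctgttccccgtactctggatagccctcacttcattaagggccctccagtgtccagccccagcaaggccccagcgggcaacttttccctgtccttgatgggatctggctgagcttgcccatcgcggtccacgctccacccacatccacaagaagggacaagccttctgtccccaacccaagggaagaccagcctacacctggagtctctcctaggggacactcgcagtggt
Gja1: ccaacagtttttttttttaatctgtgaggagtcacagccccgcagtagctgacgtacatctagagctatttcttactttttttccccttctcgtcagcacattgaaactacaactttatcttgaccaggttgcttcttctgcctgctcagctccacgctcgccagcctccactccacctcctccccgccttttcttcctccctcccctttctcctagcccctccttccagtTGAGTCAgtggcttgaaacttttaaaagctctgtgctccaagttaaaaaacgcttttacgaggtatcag
F3: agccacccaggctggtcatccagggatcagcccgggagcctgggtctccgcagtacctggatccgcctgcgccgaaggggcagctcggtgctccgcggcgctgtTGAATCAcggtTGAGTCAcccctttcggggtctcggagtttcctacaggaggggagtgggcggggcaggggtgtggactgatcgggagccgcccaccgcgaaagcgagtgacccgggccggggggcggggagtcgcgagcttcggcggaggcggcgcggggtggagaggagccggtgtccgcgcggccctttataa
*Gfap* held TTCCAGGAA, *Gja1* held TGAGTCA, *F3* held TGAATCA and TGAGTCA, and *Gjb6* held neither motif. The first base of the *Gfap* match is at -2 relative to the start, so it spans the start. Whether STAT3 uses this match was not tested. Of the 26 members with a window in the table, 5 held TTCNNNGAA (*Acsbg1*, *Aldoc*, *Gfap*, *Ntsr2* and *Slc1a3*), and 8.30% of all 32851 windows did. TGANTCA was in 2 of the 26 members, *F3* and *Gja1*, and in 7.81% of all windows. The RBPJ core GTGGGAA, the site of the Notch effector, was in 3 members (*Aldoc*, *Hes5* and *Mfge8*) and in 6.38% of all windows. The short nuclear factor I site TTGGCA was in 3 members (*Aldoc*, *Apoe* and *S100b*) and in 14.1% of all windows. A match is a description of letters, and no binding was measured.

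At P14, the astrocyte genes as a group had a median change of -0.013, against 0.024 over all genes, and this value depended on which mice entered. In the males, with mutant 1 against all 3 controls, it was 0.19, against -0.029 over all genes, and between mutant 1 and control 2, whose arrays stood apart together, it was 0.046, against -0.012 over all genes. Over all 6 mice, the mean was higher in mutants for 15 of the 31 genes, against 58.3% of all genes. None of the members was called, against 1.09% of all genes by limma. At an unadjusted p under 0.05 the count was 0 higher, against 4.05% of all genes, and 0 lower, against 4.38% of all genes, and 0 members passed the methods' thresholds, against 1.66% of all genes. No member had all mutants above all controls, against 7.11% of all genes, and *Slc1a2* was the 1 member with all mutants below all controls, against 6.52% of all genes.

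*Gfap* was at 10.67, 9.74 and 9.88 in P14 mutants 1, 9 and 11, against 10.54, 9.91 and 9.88 in controls 2, 10 and 12. The 2 high values were those of mouse 1 and mouse 2, whose arrays stood apart, and the change was -0.013 ± 0.27 (SE), with an interval of -0.65 to 0.63. With the set of arrays as a block (mice 1 and 2 against the others), the SE was 0.073 and the interval -0.18 to 0.15. In the males alone, which sets mutant 1 against controls 2, 10 and 12, the change was 0.56. Between mutant 1 and control 2, whose arrays stood apart together, it was 0.13. The P9 change of *Gfap* lay inside the interval without the block and outside that with it. *Slc1a2* was at 12.73, 12.72 and 12.68 in mutants and 12.75, 12.76 and 12.84 in controls, a change of -0.074 ± 0.078 (SE, limma adjusted p = 0.988). *Aldh1l1* was at 10.12, 9.74 and 9.68 in mutants and 10.24, 9.76 and 9.85 in controls, and *Sox9* at 9.66, 9.74 and 9.80 in mutants and 9.54, 9.67 and 9.72 in controls. Both genes overlapped between the groups.

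The members with the lowest p at P14 went in both directions. *F3* was at 9.52, 9.09 and 9.06 in mutants, against 9.59, 9.45 and 9.54 in controls, a change of -0.30 ± 0.14 (SE, limma adjusted p = 0.631). *Slc25a18*, a mitochondrial glutamate carrier, was at 10.68, 10.27 and 10.11 in mutants, against 10.24, 9.96 and 9.96 in controls, a change of 0.30 ± 0.16 (SE, limma adjusted p = 0.767). *Slc7a10*, the transporter Asc-1 of small neutral amino acids, was at 10.53, 10.37 and 10.15 in mutants, against 10.29, 9.92 and 10.10 in controls, a change of 0.25 ± 0.13 (SE, limma adjusted p = 0.791). *Id3*, an inhibitor of basic helix-loop-helix factors, was at 8.48, 8.19 and 8.12 in mutants and 8.75, 8.30 and 8.41 in controls, a change of -0.22 ± 0.15 (SE, limma adjusted p = 0.910).

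By role, the means of all 5 genes of water transport, barrier and junction were lower in P14 mutants, with a median change of -0.13, and the other members of the group had -0.17 (*Cldn10*), -0.13 (*Gja1*), -0.057 (*Mlc1*) and -0.032 (*Gjb6*) beside *Aqp4*. None of the 5 had an unadjusted p under 0.05 without the array set as a block. The means of 5 of the 7 amino acid genes were higher, with a median of 0.011. *Slc25a18* had 0.30, *Slc7a10* 0.25, *Cbs* 0.11, *Glul* 0.011 and *Slc1a3* -0.023. Of the secreted and surface proteins 4 of 7 had lower means, with *Clu* at -0.16, *Chrdl1* at -0.13 and *Apoe* at 0.0035. The receptor and signalling genes *Fgfr3* (0.15) and *Ndrg2* (0.12) had higher means and *S100b* (-0.13) a lower one. The remaining members, *Gldc*, *Acsbg1*, *Aldoc*, *Ntsr2*, *Cst3*, *Mfge8*, *Sparcl1* and *Hes5*, had changes between -0.0595 (*Mfge8*) and 0.0685 (*Ntsr2*).

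The astrocyte genes at P14 differed between the sets of arrays. In 21 of the 31 members mice 1 and 2 were both above all of mice 9 to 12, against 22.2% of all genes, with a median difference of 0.27 over the members. The difference was largest for *Fabp7*, which was at 12.83, 11.05 and 10.82 in mutants 1, 9 and 11 and at 13.00, 11.81 and 11.69 in controls 2, 10 and 12. Of the 47 other astrocyte genes described below, 16 were above in both mice, with a median difference of 0.099. The same was seen in 7 of 9 genes of dividing cells and in 13 of 17 microglial genes, with mean log2 levels of the microglial list of 9.34, 8.78 and 8.48 in mutants and 9.39, 8.72 and 8.86 in controls. It was also seen in 9 of 18 endothelial and pericyte genes, in 8 of 15 genes of choroid plexus, ependyma and meninges, and in 1 of 15 oligodendrocyte genes. The part of these differences in the astrocyte values was not tested.

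With the set of arrays, drawn from these same values, as a block, *Aqp4* and *Fabp7* were called lower in P14 mutants. *Aqp4* was at 10.16, 9.29 and 9.31 in mutants and 10.36, 9.64 and 9.64 in controls, so that within each set every mutant was below every control. The change was -0.30 ± 0.059 (SE, limma adjusted p = 0.0251 with the block, against 0.982 without it). *Fabp7* had a change of -0.60 ± 0.13 (SE, limma adjusted p = 0.0364 with the block, against 0.978 without it). These were 2 of 31 members, against 3.65% of all genes called lower with the block, and 0 members were called higher, against 3.03% of all genes. Over mice 9 to 12 alone, *Aqp4* (-0.34, limma adjusted p = 0.0444), *F3* (-0.42, limma adjusted p = 0.0283) and *Fabp7* (-0.81, limma adjusted p = 0.00785) were called lower, 3 of 31 members against 4.94% of all genes. Both mutants among those 4 mice were female and both controls male, so genotype and sex cannot be told apart there. The fit with the block holds the same 4 mice and no term for sex. Its calls, here and in the lists below, share this limit in part. In the males, mutant 1 minus control 2 was -0.21 for *Aqp4*, -0.17 for *Fabp7* and -0.064 for *F3*. With sex as a covariate and no block, which sets mutant 1 against all 3 controls although its array set holds only control 2, the changes were 0.27 for *Aqp4* and 0.67 for *Fabp7* and neither was called. Other members differed in sign between the sets, with *Gjb6* at -0.26 in mice 9 to 12 and 0.42 between mice 1 and 2, and *Gfap* at -0.088 and 0.13.

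**Figure D2:**
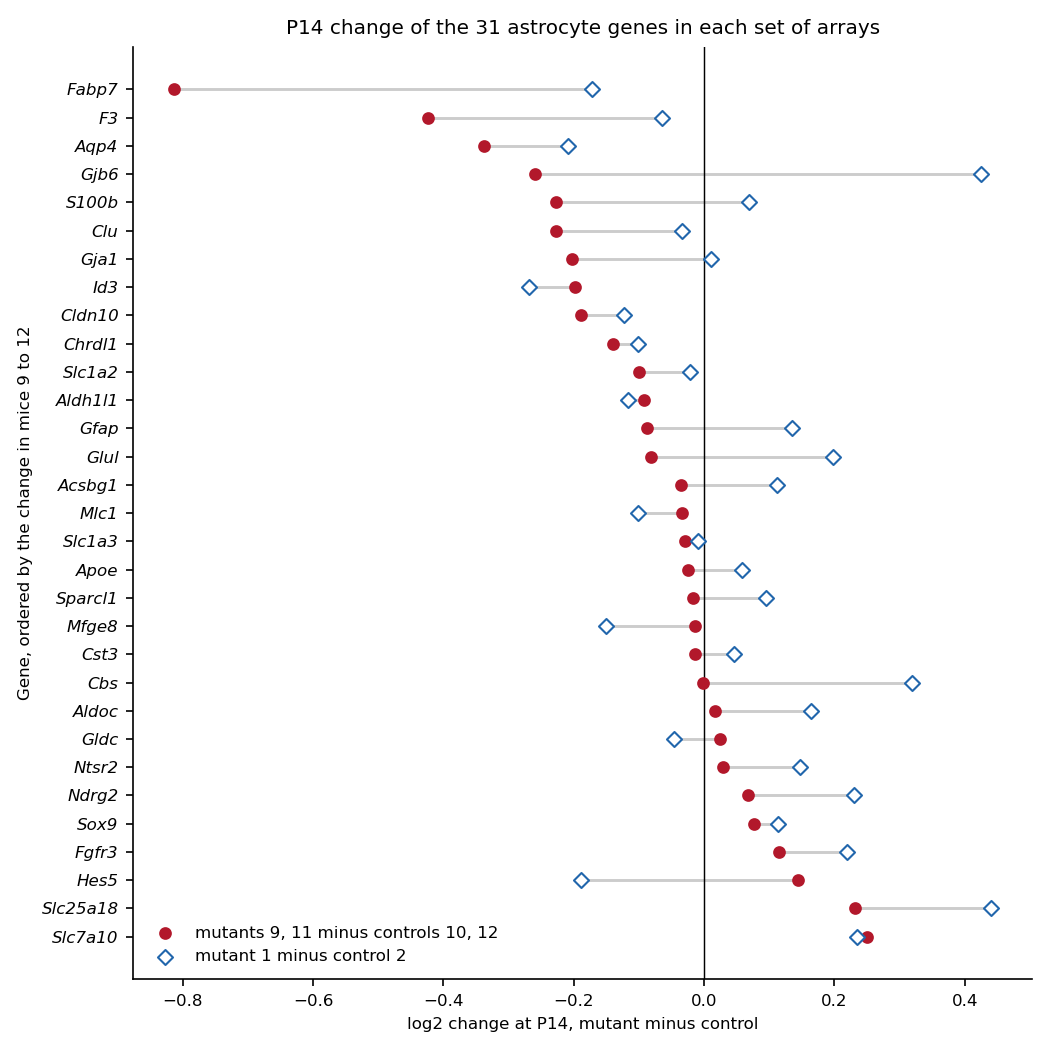
P14 log2 change of each of the 31 astrocyte genes (rows) within mice 9 to 12, mutants 9 and 11 minus controls 10 and 12 (red), and between the 2 mice whose arrays stood apart, mutant 1 minus control 2 (blue diamonds); grey lines join the values of a gene. Fabp7 (-0.81 and -0.17), F3 (-0.42 and -0.064) and Aqp4 (-0.34 and -0.21) are the lowest in mice 9 to 12, and Gjb6 (-0.26 and 0.42) is the gene with the widest gap.

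The difference between the ages was tested with the interaction of genotype and age. None of 31 members was called at an adjusted p under 0.05 by limma, and 0% of all genes were. At an unadjusted p under 0.05, 3 members had a lower change at P14 than at P9, against 2.04% of all genes, and 0 a higher one, against 2.22% of all genes. The 3 were *F3*, with a P14 change minus P9 change of -0.68 ± 0.20 (SE, limma adjusted p = 0.973), *Gjb6*, with -0.69 ± 0.31 (SE, limma adjusted p = 1.00), and *Gja1*, with -0.49 ± 0.18 (SE, limma adjusted p = 1.00). For *Gfap* the difference was -0.62 ± 0.38 (SE, limma adjusted p = 1.00). With the P14 set of arrays as a block, again none of the 31 members was called, against 0.115% of all genes, but 11 members had a lower change at P14 at an unadjusted p under 0.05, against 5.22% of all genes, and 0 a higher one, against 6.02% of all genes. The 11 were *Gfap*, *F3*, *Gja1*, *Clu*, *Cldn10*, *Gjb6*, *Id3*, *Slc1a2*, *Slc1a3*, *Ntsr2* and *Aldoc*. *Gfap* had the lowest p of them, with -0.62 ± 0.13 (SE, unadjusted p = 0.000708, limma adjusted p = 0.135 with the block). Of the 3 P14 mutants in these fits 2 were female, and all P9 mice and all P14 controls were male, so the part of sex in the difference was not tested.

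At P21, in the gain-of-function mutants, *Chrdl1* was the astrocyte gene of the lowest p. The members' median change was 0.044, against 0.012 over all genes, and the mean was higher in mutants for 21 of the 31 genes, against 54.3% of all genes. None of the members was called by limma, and 0% of all genes were. At an unadjusted p under 0.05, *Clu*, *Id3* and *Sox9* were higher, 3 of 31 members against 5.12% of all genes, and *Aqp4*, *Chrdl1*, *Slc25a18* and *Slc7a10* lower, 4 of 31 members against 5.31% of all genes. *Chrdl1* alone passed the methods' thresholds, 1 of 31 members against 0.604% of all genes. All mutants were above all controls in 5 members, against 8.15% of all genes, and below them in 4 members, against 7.67% of all genes.

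*Chrdl1* was at 7.57, 7.29 and 7.71 in P21 mutants 1, 3 and 6, against 8.11, 8.02 and 8.33 in controls 2, 4 and 5. Every mutant was below every control, and the change was -0.63 ± 0.13 (SE), with an interval of -0.92 to -0.34 (unadjusted p = 0.00109, limma adjusted p = 0.230). *Slc7a10* was at 8.24, 8.10 and 8.18 in mutants and 8.38, 8.35 and 8.59 in controls, a change of -0.27 ± 0.087 (SE, limma adjusted p = 0.358). *Id3* was at 7.33, 7.06 and 7.24 in mutants, against 6.57, 6.87 and 7.05 in controls, a change of 0.38 ± 0.13 (SE, limma adjusted p = 0.373). *Clu*, the extracellular chaperone clusterin, was at 10.80, 10.75 and 10.79 in mutants and 10.53, 10.59 and 10.62 in controls, a change of 0.20 ± 0.065 (SE, limma adjusted p = 0.357). The groups of these 4 genes did not overlap.

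*Sox9* was at 8.57, 8.62 and 8.75 in P21 mutants, against 8.44, 8.27 and 8.51 in controls, a change of 0.24 ± 0.088 (SE, limma adjusted p = 0.404). *Aqp4* was at 9.31, 9.06 and 9.11 in mutants, against 9.30, 9.47 and 9.62 in controls, and overlapped through mutant 1 and control 2. Its change was -0.30 ± 0.11 (SE, limma adjusted p = 0.380). *Aqp4* was 1 of 4 members with a lower mean in the mutants of every age, in models that change ERK signalling in opposite directions, with values of -0.25, -0.30 and -0.30 at P9, P14 and P21. The others were *Fabp7* (-0.27, -0.60 and -0.17), *Chrdl1* (-0.15, -0.13 and -0.63) and *Aldh1l1* (-0.12, -0.10 and -0.11). Of all genes, 51.8%, 58.3% and 54.3% had a higher mean in mutants at P9, P14 and P21. The share of all genes lower at every age was not counted. Whether 4 members exceed that share was therefore not tested. No effect common to the loss-of-function and gain-of-function models is drawn from the count. Without P9 mutant 4 the P9 value of *Aqp4* was -0.039, and in the fits of all mice of an age none of the 4 genes was called without the block at P14. *Gfap* was at 8.87, 8.65 and 8.37 in mutants and 8.37, 8.84 and 8.33 in controls, a change of 0.12 ± 0.17 (SE, limma adjusted p = 0.854). *Slc1a2* (0.0088) and *Aldh1l1* (-0.11) overlapped between the groups, and the glutamate and junction genes *Slc1a3*, *Glul*, *Gja1* and *Gjb6* had changes of 0.018 to 0.090.

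By role at P21, the secreted and surface proteins had a higher mean in 6 of 7, with a median change of 0.14, and *Chrdl1* was the exception. *Mfge8* had 0.17, *Apoe* 0.15, *F3* 0.14 and *Sparcl1* 0.095. The 4 genes shared with progenitors had a median of 0.18, with *Id3* and *Sox9* beside *Hes5* at 0.12, while *Fabp7* had -0.17. The amino acid genes had a median of 0.018, and their 2 members under an unadjusted p of 0.05, *Slc7a10* and *Slc25a18* (-0.15), both carry amino acids and both had lower means in mutants. The same 2 genes had the highest changes of the members at P14, in the loss-of-function mutants. There both overlapped between the groups, with an unadjusted p over 0.05 by limma. At P9, also with loss of function, *Slc7a10* had -0.046 and *Slc25a18* 0.22. The 3 metabolic genes had lower means, with a median of -0.071, and the receptor and signalling genes had changes between -0.12 (*S100b*) and 0.15 (*Ntsr2*).

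**Figure D3:**
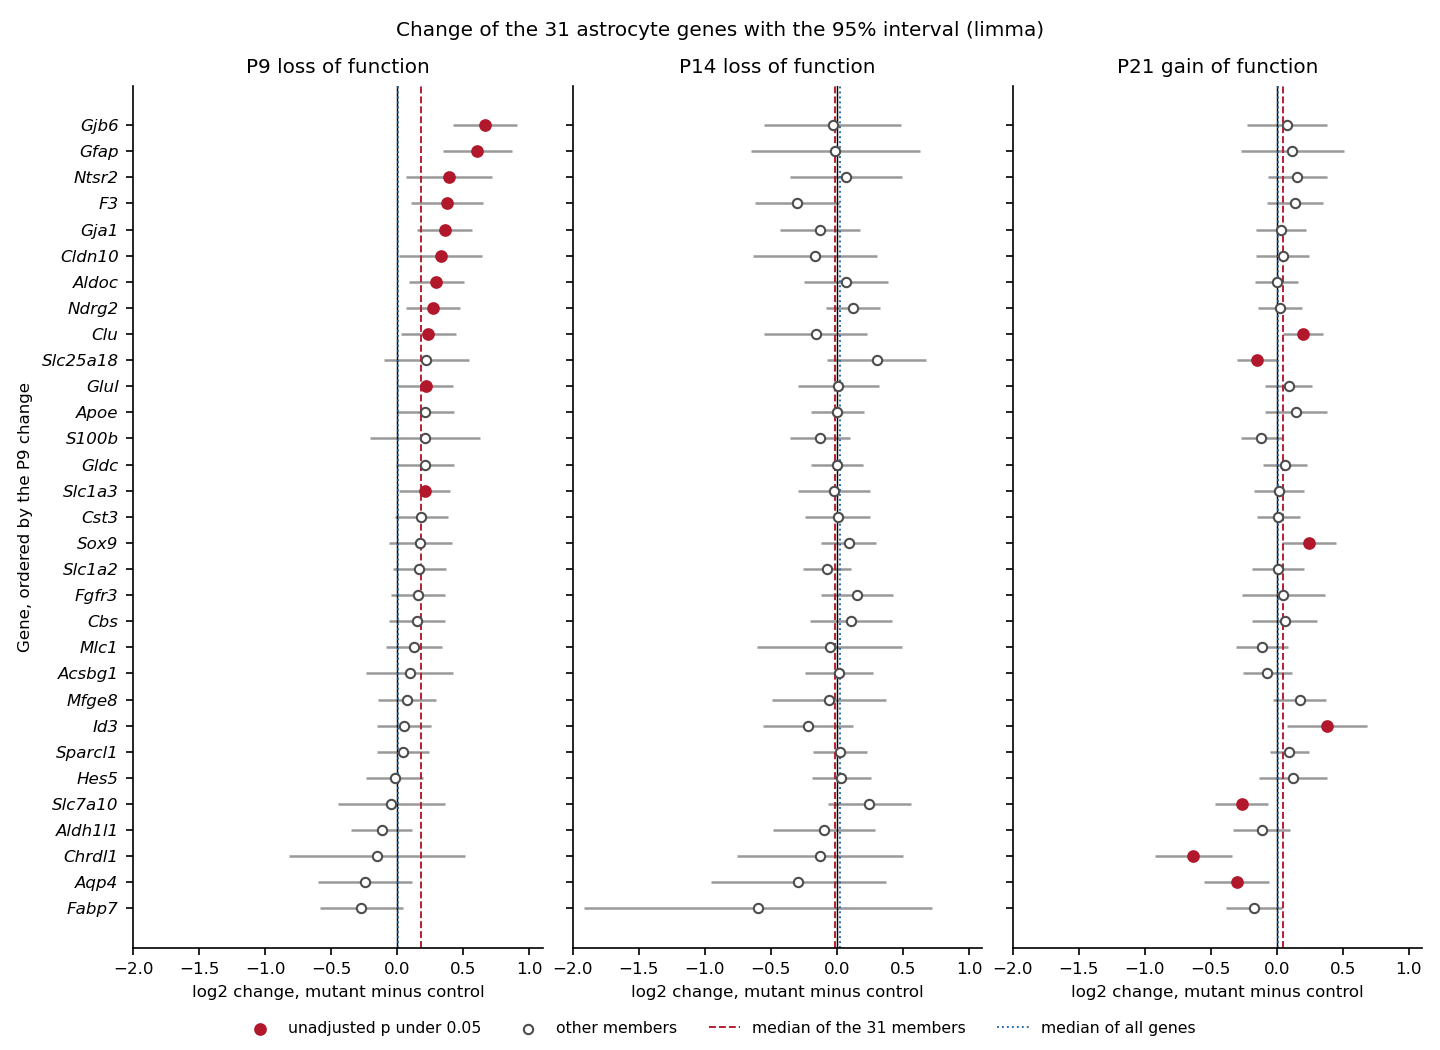
Log2 change, mutant minus control (horizontal axis), of the 31 astrocyte genes (rows, ordered by the P9 change) at P9, P14 and P21, with 95% intervals from limma; red points had an unadjusted p under 0.05, the dashed red line is the median of the members and the dotted blue line that of all genes. The members' median is 0.18 at P9, -0.013 at P14 and 0.044 at P21, and the widest of the P14 intervals is that of Fabp7.

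No general reactive marker was called at any age. Of 14 such genes, *Gfap* among them, 0 were called by limma at P9, P14 or P21, and their median changes were -0.051, -0.011 and 0.094, in that order of age. At P9, 2 of the 14 were higher at an unadjusted p under 0.05, against 5.32% of all genes, *Gfap* and the oncostatin M receptor *Osmr* (0.37). At that threshold 2 were lower, against 5.21% of all genes, the serine protease inhibitor *Serpina3n* (-0.42) and the hyaluronan receptor *Cd44* (-0.31). *Serpina3n*, a sensitive marker of reactive astrocytes, was at 8.64 and 8.69 in P9 mutants, against 9.09 and 9.07 in controls, so it lay on the other side from *Gfap*. *Vim*, the filament partner of *Gfap*, was at 9.51 and 9.88 in P9 mutants and 9.52 and 9.63 in controls. At P21 *Vim* had a change of 0.25 and the chemokine *Cxcl10* of 0.33, the 2 markers higher at an unadjusted p under 0.05 there, against 5.12% of all genes. At P14 *Cxcl10* was higher at an unadjusted p under 0.05, with a change of 0.31, and the sphingosine phosphate receptor *S1pr3* lower, with -0.24. With the set of arrays as a block at P14 the lower ones also held *Cd44* (-0.32), *Vim* (-0.24), *Cp* (-0.23) and *Osmr* (-0.18), and none of the 14 was called (limma adjusted p of 0.0696 or more). The 26 mature astrocyte genes among the members had median changes of 0.21 at P9, -0.011 at P14 and 0.029 at P21.

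Of the markers described for inflammatory (A1) reactivity, 7 of 11 were measured at P9 and P14 and 8 at P21, and of the injury (A2) markers all 12. The A1 genes had median changes of 0.13 at P9, -0.15 at P14 and 0.13 at P21, and none was called by limma. At an unadjusted p under 0.05, 1, 0 and 2 of them were higher, against 5.32%, 4.05% and 5.12% of all genes, and none was lower. Of the A2 genes 1 was called at P14, against 1.09% of all genes. This was *Ptgs2*, which also is a gene of active excitatory neurons and encodes cyclooxygenase-2. It was at 8.52, 8.17 and 8.01 in mutants 1, 9 and 11, against 8.96, 9.50 and 9.39 in controls, a change of -1.05 ± 0.18 (SE, limma adjusted p = 0.0460). *S100a10* was the A2 gene of the lowest p at P9, with a change of -0.60 (limma adjusted p = 0.150).

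Other astrocyte genes, 47 of 50 measured, had a higher mean in 34 at P9, against 51.8% of all genes, with a median change of 0.12. At an unadjusted p under 0.05, 13 of them were higher, against 5.32% of all genes, led by the gliogenic factor *Nfia* (0.45) and the protease *Htra1* (0.45). At that threshold 4 were lower, against 5.21% of all genes, led by the glypicans *Gpc6* (-0.51) and *Gpc5* (-0.49). *Gpc6*, a secreted synapse-promoting glypican, was the 1 gene of this list called at P14 without the block, at 9.34, 9.24 and 9.09 in mutants and 10.03, 9.91 and 9.93 in controls (-0.73 ± 0.095 SE, limma adjusted p = 0.0199). Of all genes 1.09% were called at P14 without the block. With the set of arrays as a block 5 of the 47 were called lower at P14, against 3.65% of all genes, and 0 higher, against 3.03%. These were *Gpc6*, the thyroid hormone transporter *Slco1c1* (-0.46), the cholesterol enzyme *Lcat* (-0.38), the deiodinase *Dio2* (-0.36) and the glutamate receptor *Grm3* (-0.28), with limma adjusted p of 0.000834, 0.00603, 0.0103, 0.0261 and 0.0401 with the block. The limit of sex given above for calls with the block applies to these 5 genes. Neurons of the cortex also make *Gpc6*. At P21 its change was 0.29 (limma adjusted p = 0.353), and the potassium channel *Kcnj10* had -0.41 (limma adjusted p = 0.341). Of the radial glial genes, 11 of 14 had a higher mean at P9, against 51.8% of all genes, with a median of 0.12. All 9 measured genes of dividing cells had a lower mean at P9, where 51.8% of all genes had a higher one, with a median of -0.14. None was under an unadjusted p of 0.05. The mean log2 levels of that list overlapped, at 6.05 and 5.86 in mutants and 6.04 and 6.20 in controls. Genes of Hedgehog signalling, by which neurons instruct some cortical astrocytes, had a higher mean in 11 of 11 at P14, against 58.3% of all genes, with a median of 0.10. Without the block none of them was called or under an unadjusted p of 0.05. With the block none was called, and *Sufu* (0.20, limma unadjusted p = 0.00745) and *Ptch1* (0.17, limma unadjusted p = 0.0428) were under it.

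Markers of other cells had median changes near those of all genes at P9, with 0.036 for 17 microglial, 0.042 for 15 oligodendrocyte and 0.057 for 18 endothelial and pericyte genes. At P14 endothelial and pericyte genes had a lower mean in 17 of 18, where 58.3% of all genes had a higher one, with a median of -0.27. The mean log2 levels of the list were 8.88, 8.49 and 8.43 in mutants against 9.16, 8.75 and 8.68 in controls. With the block on the set of arrays, 3 of the 18 were called lower, against 3.65% of all genes. The limit of sex given above applies to these calls and to those of striatum and thalamus below. Endothelial cells and pericytes are wrapped by the endfeet in which *Aqp4* lies, and the part of vessel RNA in the *Aqp4* values was not tested. Of 8 genes of striatum and thalamus, 3 were called higher at P14 with the block, *Drd1* (0.36), *Ppp1r1b* (0.44) and *Rgs9* (0.47), against 3.03% of all genes, and 0 without it. The mean log2 levels of that list were 8.72, 9.01 and 8.81 in mutants and 8.66, 8.73 and 8.71 in controls, and the part of the dissected region in the astrocyte values was not tested. At P21 all 15 oligodendrocyte genes had a lower mean in mutants, where 54.3% of all genes had a higher one. Their median was -0.39, while the 31 astrocyte genes had a median of 0.044.

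**Figure D4:**
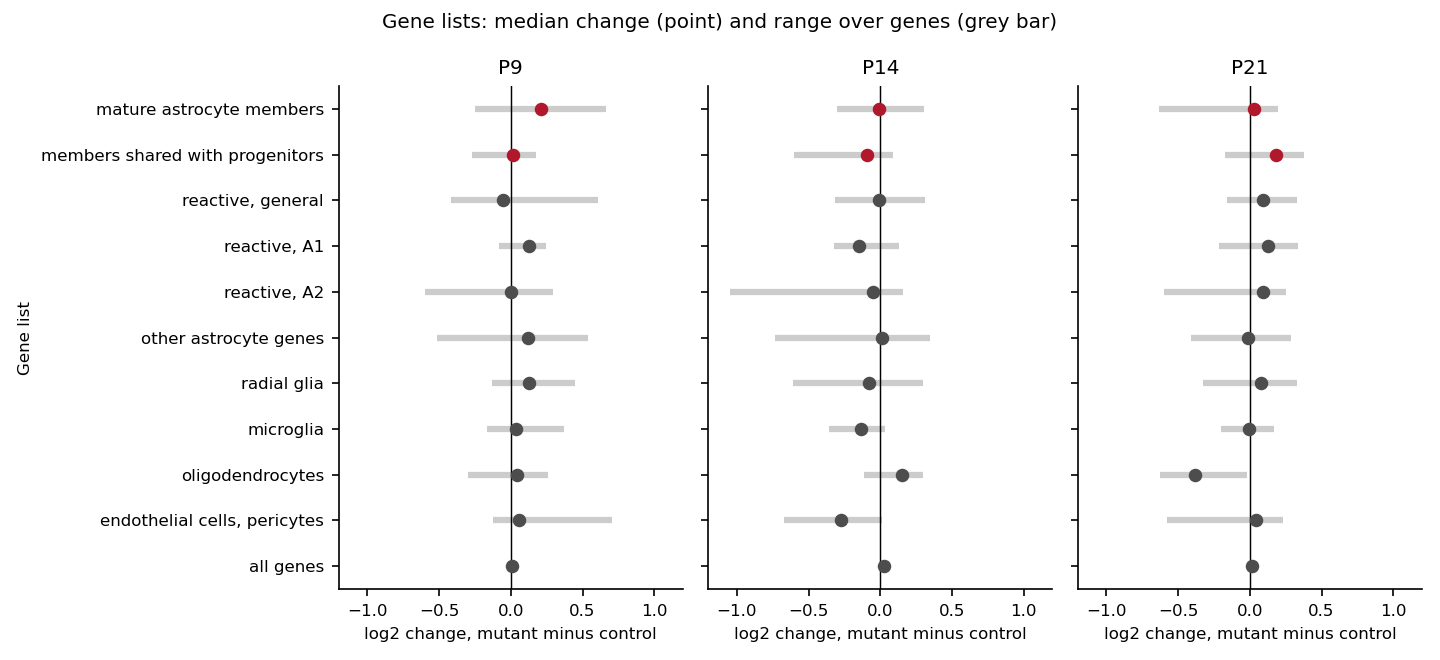
Median log2 change, mutant minus control (points), and range over genes (grey bars) of the mature astrocyte members, the members shared with progenitors, reactive markers, other astrocyte genes and markers of other cells at P9, P14 and P21. The mature members have the highest median of the lists shown at P9 (0.21), endothelial and pericyte genes the lowest at P14 (-0.27) and oligodendrocyte genes the lowest at P21 (-0.39).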

How the data were processed

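The authors made the deposited log2 values from Affymetrix gene arrays of cortical RNA with the RMA algorithm (background adjustment, quantile normalization and median polish of each probe set), with Partek 6 named in the processing notes of the submitters. No source used here gives a genome build or an annotation version. Tissue and kit are sensory cortex and miRNeasy in the labels, and dorsal cortices and RNeasy Mini after Trizol in the study's methods. P9 and P14 share a table but were normalized apart, and P21 is in a table of another array type. Arrays have no read depth, and their number limits the precision.

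Probe sets were named from the platform annotation, and those with 1 gene symbol were kept (21789 of 35557 and 23521 of 41345). A gene with several was represented by the brightest, as for 2 of the members on the loss-of-function arrays and 3 on the others. Mutants were compared with controls within each age by moderated linear models (limma 3.58.1, R 4.3.3), and P9 and P14 entered 1 model for the interaction. Tests were two-sided, and p-values were adjusted by the Benjamini-Hochberg procedure across the 19938 or 22180 genes. The fit was tested on simulated data. Replicates are separate mice. Per-mouse values are given for members called at any age, the 4 members of lowest p at each age and *Gfap*, *Aqp4*, *Aldh1l1*, *Slc1a2* and *Sox9*, and for *Fabp7*, which was called with the block. Values of *Chrdl1* at P9, *Vim* and *Serpina3n* were chosen after they were seen. The members and all lists were chosen with earlier results of these data known. Alternatives were quantile normalization, median centring, a filter on genes under the 30th percentile of brightness, other moderation of the variance, 1 model for all groups of a table, averaged probe sets, each mouse left out, the array set as a block, mice 9 to 12 alone, sex as a covariate and the methods' thresholds. Males alone and the alternatives for the interaction were added after seeing the data.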

Additional observations from a re-analysis of the deposited data

Results flagged for a closer look

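*Slc1a2* had mutants on opposite sides of controls at P9 and P14, with no overlap at either age. Of all genes, 22.0% had all mutants above all controls at P9, and 6.52% had all below at P14. The nearest P14 values of *Slc1a2* were 12.73 in mutant 1 and 12.75 in control 2. The P9 change was 0.17 and the P14 change -0.074. The difference between the ages was tested with the interaction term and was -0.24 ± 0.11 (SE, limma adjusted p = 1.00). With the P14 array set as a block the adjusted p of that difference was 0.367.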

How the results depend on the processing

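No member was called by the fits of any age with quantile normalization, median centring, a filter on dim genes, no moderation, 1 model for all groups of a table or averaged probe sets, or with any mouse left out. The exceptions were trended and robust moderation, which called 3 members higher at P9 (*Gfap*, *Gja1* and *Gjb6*, with limma adjusted p of 0.0281, 0.0427 and 0.0319), the block on the P14 array set, which called 2 lower, and mice 9 to 12 alone, which called 3 lower. The methods' thresholds passed 2 members higher at P9 and 1 lower at P21. The members' median change at P9 was 0.15 with quantile normalization, and at P14 it was 0.19 with sex as a covariate or in males alone. These 2 settings give the same change by construction, because both P14 females were mutants. It is mutant 1 minus the mean of the 3 controls. No paired analysis was made, because the labels do not say which mice shared a litter. The study's methods name 2 independent litters at P9 and 3 at P14. Sex was not fitted at P9 or P21, where all mice were male. The number of arrays limits the precision, and the cause of the following differences was not tested.

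Of all genes at P9, 15 were called, and 61 with the filter on dim genes, 235 with trended moderation, 0 with no moderation, 42 with all groups in 1 fit, 7 with the mean of probe sets and 221 at the methods' thresholds, with 0 to 13 when a mouse was left out. At P14, 217 were called, and 341 with quantile normalization, 18 with no moderation, 480 with all groups in 1 fit, 1333 with the block, 984 in mice 9 to 12, 38 with sex as a covariate, 0 in males alone and 330 at the methods' thresholds, with 27 (without mutant 11) to 304 (without mutant 1) when a mouse was left out. At P21, 0 were called, and 16 with trended moderation and 134 at the methods' thresholds, with 0 to 2 when a mouse was left out. For the interaction, 0 were called, and 23 with the block and 1 with quantile normalization, with 0 to 9 when a mouse was left out.

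At P14 the *Gfap* change was 0.017 with quantile normalization, 0.56 with sex as a covariate or in males alone, which is the same contrast, and -0.30 to 0.20 when a mouse was left out. In that contrast of mutant 1 with the controls *Aqp4* had 0.27, *Aldh1l1* 0.17 and *Fabp7* 0.67, and *Aldh1l1* had -0.24 to 0.044 when a mouse was left out. At P21 *Slc1a2* had -0.023 with median centring and -0.056 to 0.048 when a mouse was left out, and *Gfap* -0.0019 to 0.28.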
